A study of Mus musculus with 4 samples.

Results

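The Hox genes are the homeobox genes of the HoxA, HoxB, HoxC and HoxD clusters, and 33 of the 18194 genes measured by their own probe sets belonged to them. The members were taken by name, as every gene whose platform annotation symbol is Hoxa, Hoxb, Hoxc or Hoxd followed by a number alone, on probe sets with 1 symbol. A probe set is the group of short oligonucleotides that measures 1 transcript on the array, and 48 probe sets covered the 33 genes. Other Hox genes were not analysed here, nor were 3 probe sets that carry more than 1 symbol with a Hox gene among them. The family was chosen from the comparison of the groups, because Hoxa7 had the lowest log2 fold change of all 11956 genes tested. Differences between the groups are therefore given for Hox genes as a description, and where the outcome of the fit over all genes is stated for them, nothing is supported with it.

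Hox genes encode transcription factors that bind DNA through a homeodomain and give cells their position along the body axis. They lie side by side in each cluster in the order in which they are used, low numbers towards the head and high numbers towards the tail, and genes of the same number in different clusters are paralogs. Their active or silent state is inherited by daughter cells through Polycomb complexes, which silence them, and MLL complexes, which keep them on, so adult cells carry a Hox pattern that reflects their origin. In the mammary gland Hox genes take part in gland development and lactation, and their expression is often changed in breast cancer.

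RNA came from 4T1 cells, a mouse mammary carcinoma line, cultured with bovine serum under normoxia and picked by hand under a dissecting microscope. One group carried CD44v8-10, a splice form of the surface receptor CD44 with variant exons, and the other did not. Each group had 2 samples, each hybridised to a one-colour Affymetrix array. How the CD44v8-10 status was assigned is not given in the sources used here, and nothing in the labels says whether the 2 samples of a group came from separate cultures, so the spread between them may be technical. The trimmed mean of the deposited intensities ran from 196 to 345 over the 4 arrays, so the arrays were quantile normalized, and the values below are normalized signals unless called deposited. All 10 epithelial markers examined were above the filter level described below, as were 3 of 10 fibroblast, 6 of 9 macrophage, 1 of 7 endothelial and 1 of 7 lymphocyte markers. In bulk RNA, fewer cells of a type and less RNA per cell cannot be told apart.

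The Hox genes above the array's filter on dim probe sets came almost entirely from the HoxA cluster. Of the 9 HoxA genes measured, 7 had a probe set above it: Hoxa2, Hoxa3, Hoxa4, Hoxa5, Hoxa7, Hoxa9 and Hoxa10. None of 9 HoxB genes and none of 8 HoxD genes did, and of 7 HoxC genes Hoxc6 alone did. The filter was the 40th percentile of the probe sets' 4-array means, a signal of 19.4. It kept 65.7% of all genes measured, against 8 of the 33 Hox genes. The filter used the mean over both groups, and Hoxa7 was above its level in the 2 negative arrays alone. The count stayed between 8 and 11 genes in every alternative setting but 2: without a filter all 33 were included, and at the 60th percentile Hoxa2, Hoxa3, Hoxa5 and Hoxa10 were left. The genes that joined in at least 1 of those settings were Hoxa11, Hoxb2, Hoxb3, Hoxb4 and Hoxc9, and no HoxD gene joined in any setting with a filter. A signal below the filter does not show that a gene was silent, since the deposited table gives no detection calls.

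**Figure D1:**
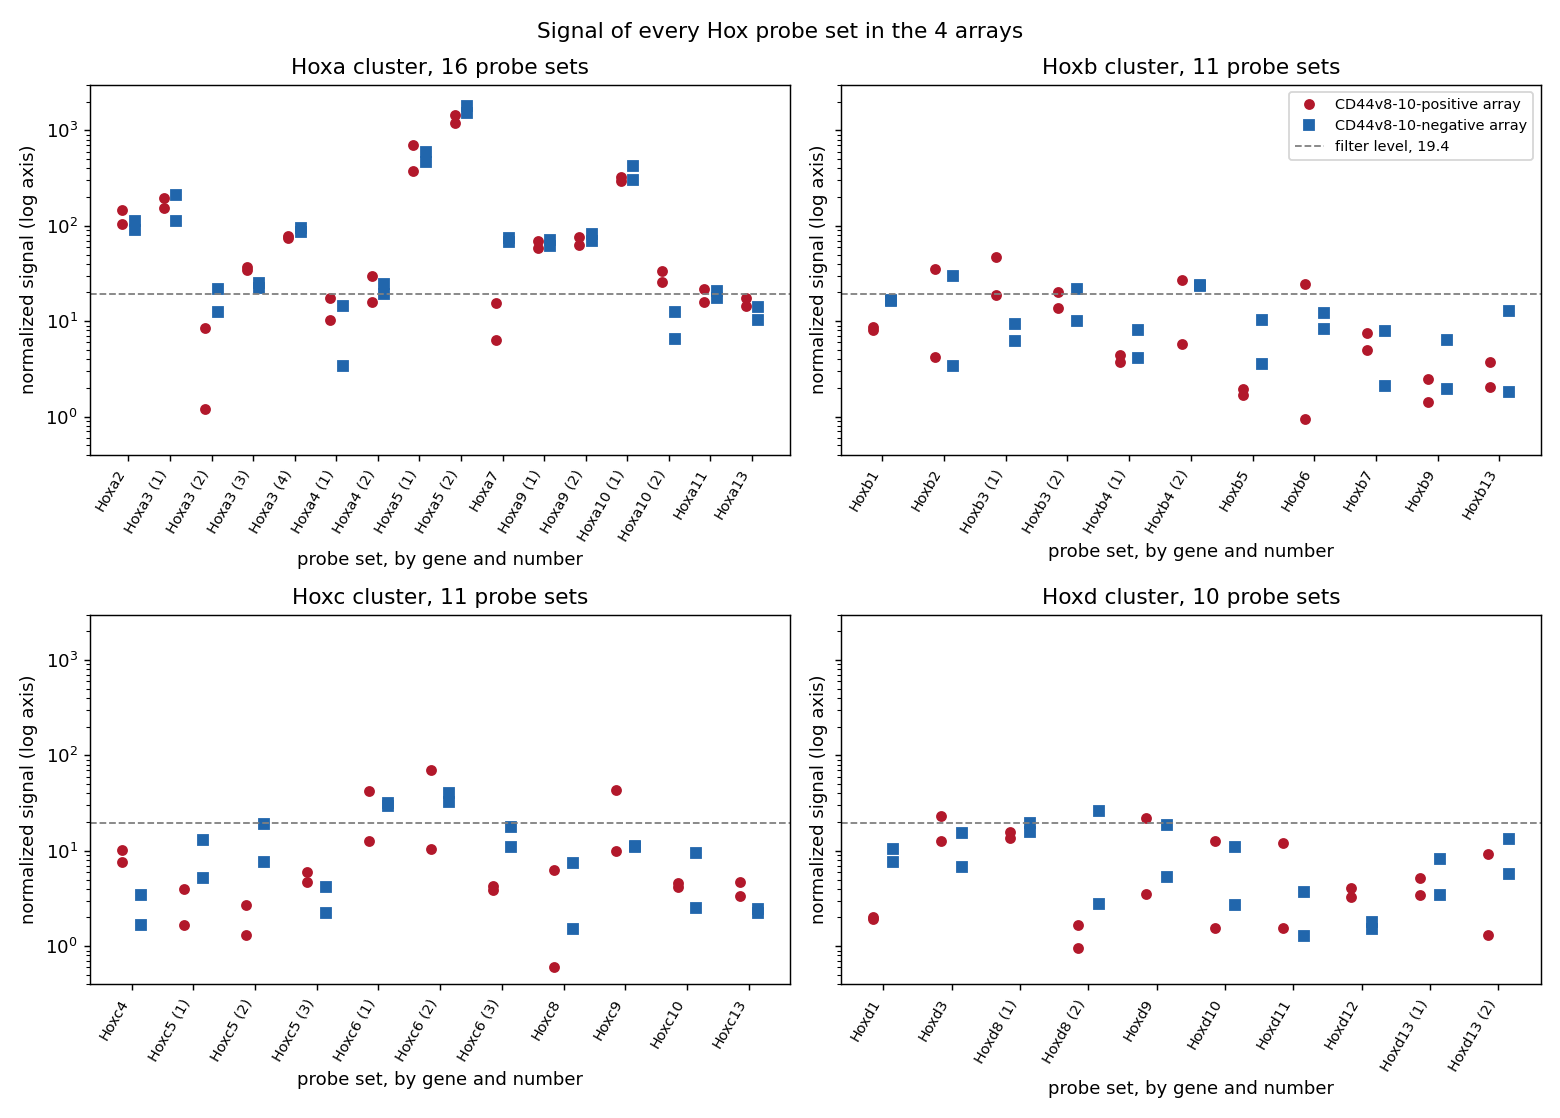
Normalized signal (log axis) of each of the 48 Hox probe sets in the 2 CD44v8-10-positive arrays (circles) and the 2 CD44v8-10-negative arrays (squares), 1 panel per cluster, with genes in order of their number, repeat probe sets numbered by identifier, and the filter level of 19.4 as a dashed line. Signals of different probe sets are not comparable, so each is read against the dashed line: 9 of 16 HoxA probe sets lie above it in all 4 arrays, and none of the other clusters does.

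The HoxA cluster lies on mouse chromosome 6. The passing genes lay between Hoxa2 and Hoxa10, with Hoxa7 among them only through the negative cells, and the tail-end genes Hoxa11 and Hoxa13 were below the filter. Hoxa11, which patterns the limb and uterus, lay just outside, with signals of 15.9 and 21.5 (positive arrays) against 20.9 and 17.6 (negative arrays). Hoxa4, which acts in the neck vertebrae, lay just inside, with 29.4 and 16.02 (positive arrays) against 19.4 and 24.6 (negative arrays). Both genes thus straddled the filter level in each group, and their place on either side of it rests on small differences. Hoxa13, which patterns digits and hindgut, had 14.5 and 17.4 (positive arrays) against 10.3 and 14.2 (negative arrays).

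Hoxa7, a gene of the thoracic region that is also linked to keratinocyte differentiation, was lower in the CD44v8-10-positive cells. Its single probe set gave normalized signals of 15.4 and 6.33 in the positive arrays and 74.4 and 67.7 in the negative arrays. In the deposited values these were 13.2 and 7.40 against 55.9 and 97.5. The groups did not overlap on either scale, and both positive arrays lay below the filter level, so Hoxa7 passed the filter through the negative cells. The mean ± SD was 10.9 ± 6.40 in positive and 71.1 ± 4.76 in negative cells (n = 2 each), a ratio of means of 6.55. On the log2(value + 16) scale of the fit, which understates differences of dim genes, the log2 fold change of positive minus negative was -1.72 ± 0.37 (SE), or 3.29-fold.

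The size of this difference depended on the pseudocount, the constant added before taking logs. A pseudocount of 1 gave -2.72 on the log2 scale and one of 64 gave -0.85, so neither fold is exact. These were the extremes of the 15 alternatives in which the fold change of Hoxa7 was taken, and in each of them the positive arrays lay below the negative arrays. The variance settings also kept Hoxa7, but they do not alter a fold change. Leaving out 1 array at a time gave -1.99 to -1.53. At the 60th percentile filter Hoxa7 was not included. No Hox gene passed an adjusted p of 0.05 in the limma fit over 11956 genes, in which 0.0753% of genes passed in either direction and 0% as lower. With arrays centred on their medians in place of quantile normalization, Hoxa7 did pass. Since Hoxa7 was chosen on this contrast, neither outcome is support for the difference.

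**Figure D2:**
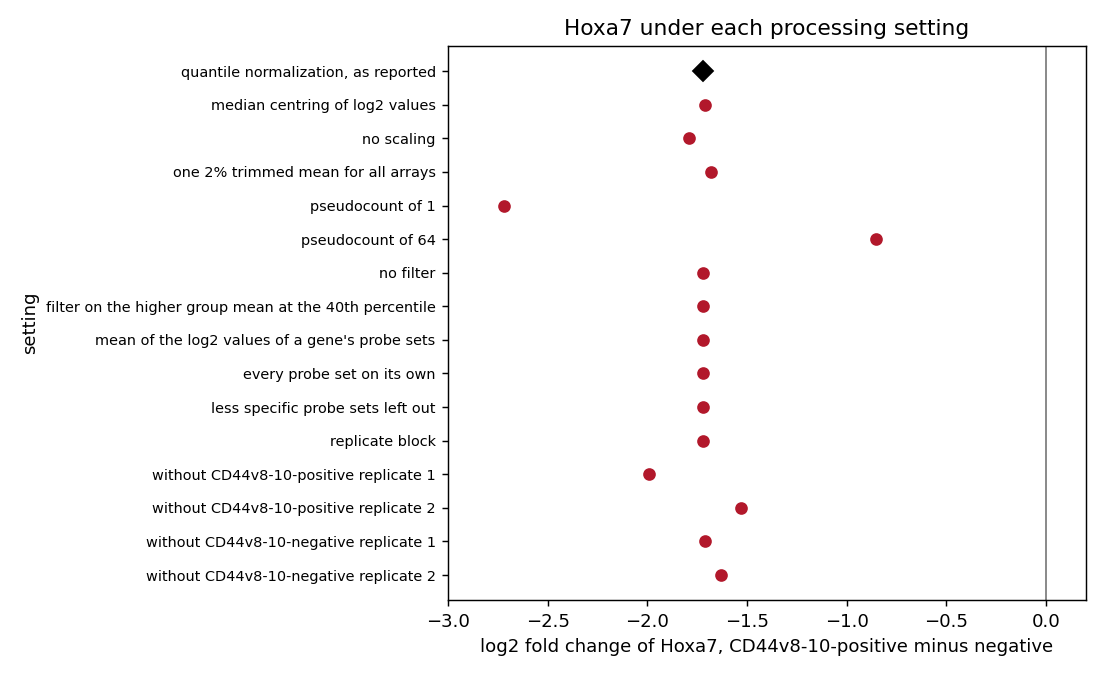
Log2 fold change of Hoxa7, CD44v8-10-positive minus negative, under quantile normalization as reported (diamond) and under each alternative setting that kept the gene, other than the variance settings (circles). All points lie below 0, from -2.72 with a pseudocount of 1 to -0.85 with a pseudocount of 64.

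The neighbours of Hoxa7 in the cluster are given as a description. Hoxa7 was chosen as the lowest of all 11956 genes tested, so no neighbour could lie as low. In the RefSeq order Hoxa7 lies between Hoxa6, not analysed here, and Hoxa9, with Hoxa5 beyond Hoxa6. Hoxa5, which acts in lung and mammary development, had signals of 1445 and 1200 (positive arrays) against 1509 and 1795 (negative arrays). The positive arrays were both lower, but the log2 fold change was -0.32 (95% interval -0.74 to 0.10), and the second Hoxa5 probe set overlapped, with 373 and 708 against 470 and 590 and a log2 fold change of -0.03. The brighter Hoxa5 probe set also overlapped under median centring and under no scaling, as did the mean of both Hoxa5 probe sets, though the log2 fold change stayed below 0 in all 3. The second Hoxa5 probe set is of a type whose identifier marks it as less specific. With such probe sets left out, Hoxa5 kept its brighter probe set, lower in both positive arrays at -0.32. Hoxa9, known for mammary gland function and for leukemia, had 76.2 and 63.3 (positive arrays) against 81.6 and 69.8 (negative arrays). Its groups overlapped, with a log2 fold change of -0.10 (95% interval -0.72 to 0.52), and its second probe set gave 58.2 and 69.4 against 61.6 and 70.4. Hoxa9 was lower in both positive arrays under median centring, with 1 trimmed mean for all arrays and in the mean of its probe sets, at log2 fold changes of -0.19, -0.11 and -0.07.

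The deposited values of Hoxa7 can also be set against those of its neighbours within each array, where no scaling between arrays enters. The deposited value of Hoxa7 divided by that of Hoxa9 was 0.198 and 0.124 in the positive arrays and 0.910 and 0.965 in the negative arrays. Divided by Hoxa5 it was 0.00943 and 0.00719 against 0.0467 and 0.0396, and divided by Hoxa10 it was 0.0490 and 0.0257 against 0.245 and 0.162. In all 3 ratios the groups did not overlap. These ratios describe an unequal difference and do not show that a neighbour stayed constant. They rest on the same Hoxa7 values as the fold change for which the gene was chosen, so they are no support for it.

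The DNA just before the 3 start sites is shown because the ratios of Hoxa7 to these neighbours differed between the groups. The sequences are the 250 bases before the start in RefSeq, build GRCm38.p6, minus strand, at chr6:52204588-52204837 (Hoxa5), chr6:52218574-52218823 (Hoxa7) and chr6:52227371-52227620 (Hoxa9). They are written 5′ to 3′ with each CG dinucleotide in capitals.
Hoxa5: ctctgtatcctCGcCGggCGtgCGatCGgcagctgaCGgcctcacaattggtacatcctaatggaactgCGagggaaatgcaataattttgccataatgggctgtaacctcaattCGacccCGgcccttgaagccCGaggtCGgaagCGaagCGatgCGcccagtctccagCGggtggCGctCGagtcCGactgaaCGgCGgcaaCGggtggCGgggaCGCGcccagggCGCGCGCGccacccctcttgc
Hoxa7: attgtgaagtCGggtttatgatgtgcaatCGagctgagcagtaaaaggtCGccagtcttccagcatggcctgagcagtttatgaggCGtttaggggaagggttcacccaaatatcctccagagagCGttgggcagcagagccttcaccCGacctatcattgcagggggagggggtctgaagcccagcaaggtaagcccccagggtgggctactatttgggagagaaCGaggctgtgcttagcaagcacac
Hoxa9: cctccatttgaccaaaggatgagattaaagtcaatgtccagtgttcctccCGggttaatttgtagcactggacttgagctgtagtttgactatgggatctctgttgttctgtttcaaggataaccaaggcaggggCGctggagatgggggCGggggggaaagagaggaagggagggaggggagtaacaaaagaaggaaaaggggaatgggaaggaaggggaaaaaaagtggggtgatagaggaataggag

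These windows held 28 CG dinucleotides for Hoxa5, 7 for Hoxa7 and 3 for Hoxa9. Of the 33 Hox genes measured, 19 had entries in the RefSeq promoter table, with 21 windows of 250 bases before to 50 after the start. Their CG count had a median of 15, with a range of 4 to 45, while the median over 32841 windows of all genes was 7. On these longer windows Hoxa5 had 29 CG dinucleotides, Hoxa7 had 9 and Hoxa9 had 4. The median CG count was 12 in the 7 windows of Hox genes above the filter and 17.5 in the 14 windows of those below it. These windows cover 6 of the 8 genes above the filter, all of HoxA, and 13 of the 25 below it. Most windows of the genes below it were of HoxD, so filter and cluster cannot be told apart here. The letters TGATTNAT, searched on both strands as a site that Hox and Pbx proteins bind together, occurred in 2 of the 21 Hox windows (9.52%), those of Hoxa2 and 1 of the 2 of Hoxd11, and in 3.22% of all windows. They were not in the Hoxa7 window. The data hold no measurement of methylation or protein binding at these sites.

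Hoxa10, which acts in the uterus and hindlimb, is the last HoxA gene above the filter. Its brighter probe set gave signals of 295 and 327 (positive arrays) against 302 and 423 (negative arrays), which overlapped, with a log2 fold change of -0.19 (95% interval -0.70 to 0.32). Its second probe set, below the filter, ran the other way without overlap, at 33.4 and 25.6 against 6.45 and 12.5. The 2 probe sets of Hoxa10 therefore gave differences of opposite sign.

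At the head end of the cluster, Hoxa2, which patterns the hindbrain and the second pharyngeal arch, had signals of 104 and 147 (positive arrays) against 91.5 and 111 (negative arrays). The groups overlapped, and the log2 fold change was 0.26 (95% interval -0.33 to 0.84). Hoxa3, needed for thymus and parathyroid, had 4 probe sets that did not give one picture. The brightest had 154 and 196 against 112 and 208, an overlap, with a log2 fold change of 0.16, which median centring turned to -0.0016 and no scaling to -0.08. The next was lower in both positive arrays, at 77.5 and 74.6 against 86.4 and 95.4. Another was higher in both, at 37.4 and 34.6 against 25.02 and 22.3, and the dimmest, below the filter, was lower, at 1.2 and 8.43 against 12.4 and 21.6. The brightest is of the less specific type, and with such probe sets left out Hoxa3 gave -0.215. Over 16 alternatives Hoxa3 lay below 0 in 5 and above 0 in 11. The lowest value was -0.239, without negative replicate 1, and the highest 0.551, without negative replicate 2. In the RefSeq gene models Hoxa3 spans Hoxa4, Hoxa5 and Hoxa6, so a probe set named Hoxa3 could also lie in one of these genes; probe positions were not analysed here. Hoxa4 gave a fold change on the log2 scale of 0.01 (95% interval -0.89 to 0.91), which was -0.02 with no scaling, -0.24 without positive replicate 1 and 0.27 without positive replicate 2.

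**Figure D3:**
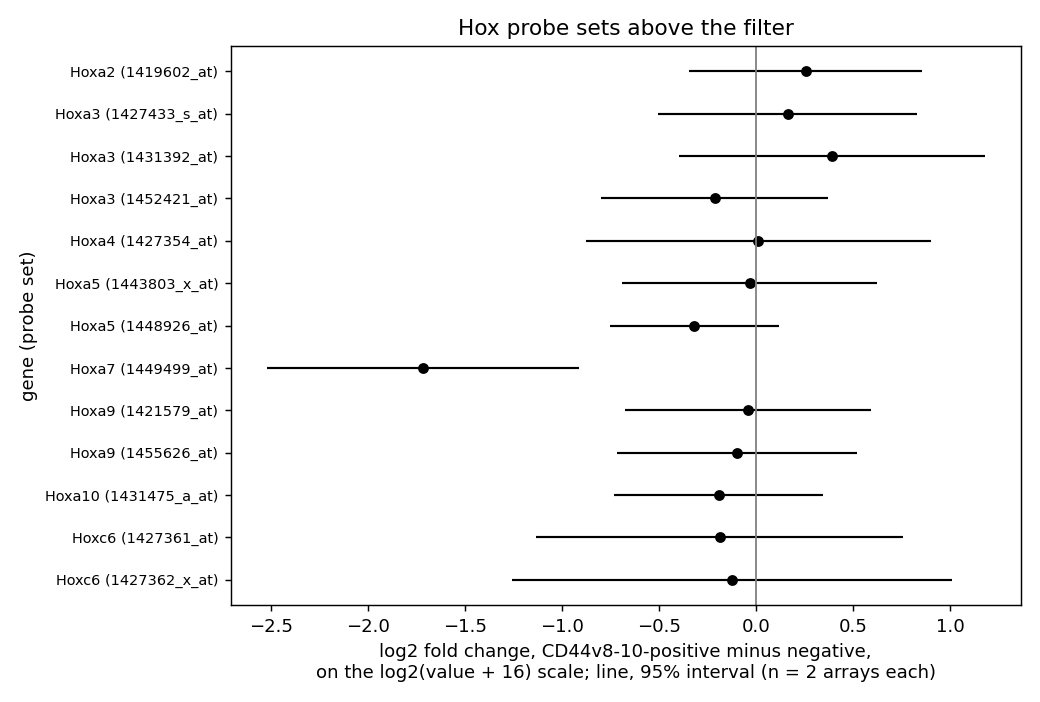
Log2 fold change, CD44v8-10-positive minus negative, of the 13 Hox probe sets above the filter, each fitted on its own, with 95% intervals as lines (n = 2 arrays per group). Hoxa7 lies at -1.72, and the other 12 lie between -0.32 and 0.39 with intervals that cross 0.

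Hoxc6, a thoracic gene that is active in the developing mammary gland, was the one gene outside HoxA above the filter. Its brightest probe set had signals of 10.5 and 70.9 (positive arrays) against 40.6 and 32.4 (negative arrays). The 2 positive arrays lay on either side of the negative ones, and a second probe set repeated this, with 12.6 and 42.5 against 29.9 and 31.4. The log2 fold change was -0.13 (95% interval -1.21 to 0.96). It was 0.74 without positive replicate 1 and -0.999 without positive replicate 2, so its direction turned with the array left out. The third Hoxc6 probe set, below the filter, was at 4.30 and 3.85 against 17.6 and 10.9.

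Among the 8 genes above the filter the median log2 fold change was -0.11, and 5 of the 8 lay below 0, while over all 11956 genes the median was 0.03 and 45.7% lay below 0. With no scaling the median over all genes moved to -0.15 and that of the Hox genes to -0.24. With 1 array left out, the median over these same 8 genes ran from -0.17 (without negative replicate 1) to -0.07 (without negative replicate 2). In 2 of the 8, Hoxa5 and Hoxa7, both positive arrays were lower than both negative arrays, against 13.8% of all genes tested. At the level of probe sets, 4 of the 13 above the filter had groups that did not overlap, against 32.4% of all such probe sets. Over all 48 Hox probe sets it was 20, with 8 higher and 12 lower, against 32.7% of all probe sets with 1 symbol. Of the 8 genes, 1, Hoxa7, had an unadjusted p under 0.05 in limma, against 4.45% of all genes. Nothing is read from these counts, since the contrast chose the family.

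The other 25 Hox genes were below the filter on every probe set. Together with the dim probe sets of the genes above it, 35 probe sets lay below, of which 22 stayed under a signal of 19.4 in all 4 arrays, and none exceeded it in all 4. The HoxB cluster, on chromosome 11, had 11 such probe sets with a median signal of 7.92 (0.95 to 46.6). Hoxb7, the paralog of Hoxa7, had 7.58 and 5 (positive arrays) against 2.10 and 7.80 (negative arrays), which overlapped. The highest HoxB value, 46.6, came from a Hoxb3 probe set, with 19.0 and 46.6 against 9.34 and 6.25, while the second Hoxb3 probe set overlapped at 13.8 and 20.4 against 10.0 and 21.7. Hoxb4, a regulator of blood stem cells, reached 27.05 in 1 positive array and 23.4 and 23.8 in the negative arrays, but 5.75 in the other positive array. Hoxb9 and Hoxb13, at the tail end, stayed between 1.42 and 12.7.

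The HoxC cluster, on chromosome 15, had 9 probe sets below the filter with a median signal of 4.66 (0.60 to 43.2). The highest value, 43.2, belonged to Hoxc9 in positive replicate 1, whose other arrays read 9.85, 11.0 and 11.3. Hoxc5 had 3 probe sets, 2 lower and 1 higher in both positive arrays, with no value above 19.0. The 10 HoxD probe sets, on chromosome 2, had a median of 5.45 (0.95 to 26.2). Hoxd8 had its highest signal in negative replicate 2, at 26.2 against 2.75 in negative replicate 1. No difference between the groups is drawn from probe sets at these signals.

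Of 7 lists of genes that act with or on Hox genes, or lie beside them, no gene passed the test, and most listed cofactors and chromatin regulators were above the filter. Among the cofactors of the TALE class, homeodomain proteins that bind DNA together with Hox proteins, 6 of 8 measured genes were above the filter: Pbx2, Pbx3, Meis1, Meis2, Meis3 and Pknox1. None passed an adjusted p of 0.05 (limma), 1 lay above 0 and 5 below, and the median log2 fold change was -0.23. Pbx3 had 290 and 259 (positive arrays) against 271 and 407 (negative arrays) (log2 fold change -0.26, 95% interval -0.80 to 0.27, limma adjusted p 0.985). Pbx2 had -0.30 and Pknox1 -0.20, with overlapping signals in both.

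The Polycomb genes were all above the filter, 11 of 11 in complex 2, which places the repressive H3K27 methylation, and 17 of 17 measured in complex 1, some forms of which bind it. No gene of either list passed, and the medians were -0.06 and 0.02. Ezh2, the methyltransferase of complex 2, had 1796 and 1564 (positive arrays) against 1486 and 2012 (negative arrays), which overlapped. In complex 2 Phf1 had a log2 fold change of -0.28, Mtf2 -0.23 and Rbbp7 -0.12, and in complex 1 Pcgf2 had 0.45 and Bmi1 -0.29 (95% interval -0.71 to 0.14). Of 19 genes of the MLL complexes, their partners and the H3K27 demethylases, 9 had values above 0 and 10 below (median -0.02). Of the 19, 1 had an unadjusted p under 0.05 in limma, against 4.45% of all genes tested. It was Aff1, a partner in transcription elongation, at 431 and 472 (positive arrays) against 302 and 324 (negative arrays) (log2 fold change 0.51, limma adjusted p 0.985). Psip1, which tethers MLL to chromatin, had -0.33 and Dpy30 -0.15.

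Of the retinoic acid pathway and the other upstream regulators of Hox genes, 8 of 20 measured genes were above the filter, and none passed the threshold (median log2 fold change 0.01). Rarg, a retinoic acid receptor, had 0.42 and Gmnn, geminin, -0.18, with overlapping signals. Of 20 other homeobox genes related to the Hox genes, 4 were above the filter. Of these, 2 had an unadjusted p under 0.05 in limma, with an adjusted p of 0.985. Over all genes tested, 4.45% had such an unadjusted p. The 2 genes, Msx1 and Evx2, had mean signals of 17.6 and 18.2 in the negative cells, below the filter level of 19.4. They thus passed the filter through the positive cells, and 16 genes of the list were not tested, so nothing is read from this count. Msx1, a regulator of limb and tooth development, had 33.9 and 89.0 (positive arrays) against 7.40 and 27.7 (negative arrays) (log2 fold change 1.18, 95% interval 0.18 to 2.17). Evx2, the homeobox gene beside the HoxD cluster, had 46.2 and 53.6 (positive arrays) against 28.9 and 7.50 (negative arrays) (1.02, 95% interval 0.12 to 1.92), while all HoxD genes were below the filter. Dlx1 had -0.21. The 9 genes flanking the clusters were all above the filter, with log2 fold changes from -0.21 to 0.34, among them Smug1 at 0.34, Cbx5 at 0.22 and Mtx2 at -0.05.

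**Figure D4:**
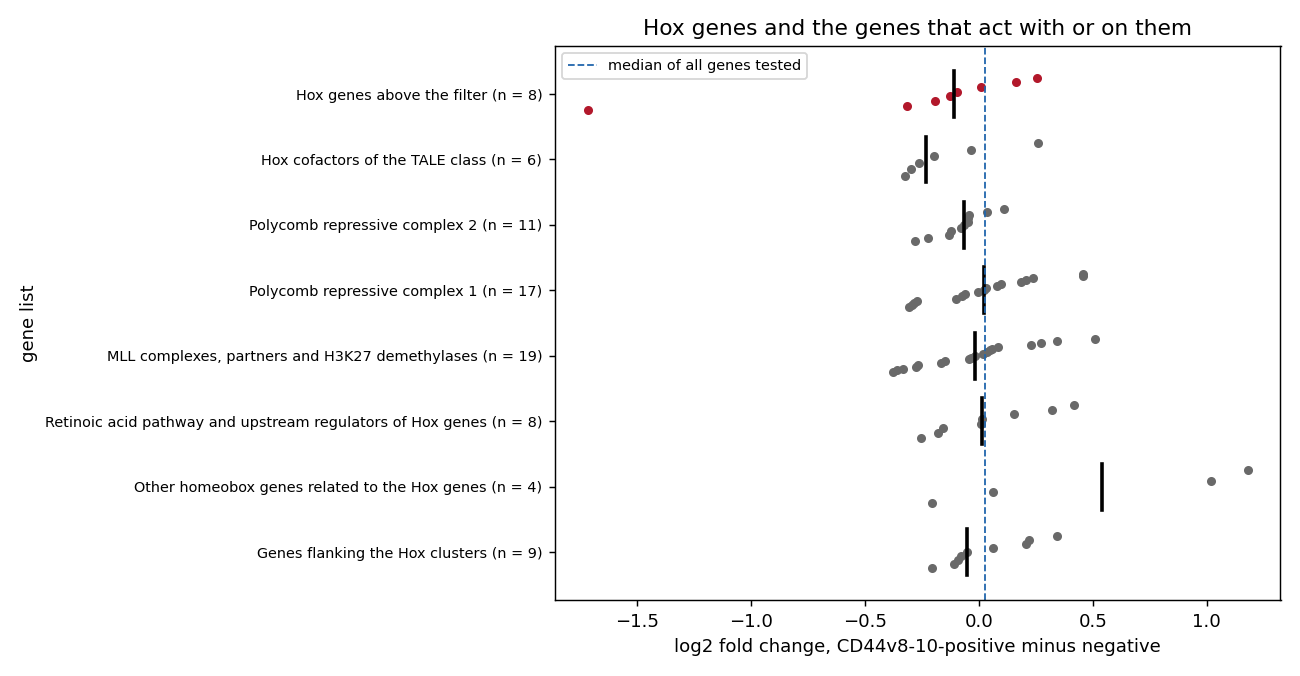
Log2 fold change, CD44v8-10-positive minus negative, of the 8 Hox genes above the filter and of the tested genes of 7 lists of cofactors, regulators and neighbours, 1 point per gene with the list's median as a black bar. The dashed line is the median of all genes tested, 0.03. Hoxa7 lies at -1.72, and as it was chosen as the lowest of all genes tested, it lies below all 7 lists by that choice.

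Markers of cell state and of other cell types stood beside these values as follows. Of 10 epithelial markers 4, Cldn3, Cldn7, Epcam and Krt14, passed as higher in the positive cells (limma), against 0.0753% of all genes tested in either direction. All 10 had log2 fold changes above 0, but Cdh1, Krt18 and Krt8 overlapped, at 0.28, 0.08 and 0.06. The summed epithelial signal was 39326 and 42214 (positive arrays) against 28686 and 34223 (negative arrays). Of 10 fibroblast markers 3 were above the filter and none passed, and the summed signal was 207 and 162 (positive arrays) against 233 and 221 (negative arrays). Pdgfra, a receptor of fibroblasts and other mesenchymal cells, was lower in both positive arrays, with 47.0 and 33.6 against 108 and 76.6 (log2 fold change -0.94, limma adjusted p 0.980). Pdpn was higher in both, with 28.02 and 31.1 against 17.0 and 21.8 (0.37), and Col1a2 overlapped, with 42.1 and 48.3 against 38.6 and 48.3 (0.04). Of the 7 below the filter, Col1a1, Col3a1, Pdgfrb and Thy1 stayed at or below 15.5 in every array, while Fap, Lum and Dcn had highest values of 28.02, 23.7 and 20.9. The summed macrophage signal was 521 and 661 against 439 and 417, and the lymphocyte signal 79.6 and 73.9 against 102 and 56.2. The summed endothelial signal was 130 and 98.8 against 72.3 and 76.8, but 6 of the 7 endothelial markers were below the filter. The 1 above it, Cldn5, overlapped, with 35.85 and 4.025 against 27.38 and 28.55 (log2 fold change -0.45). The higher endothelial sum in the positive cells thus came from markers below the filter. No gene of these 3 lists was past the threshold. The part of these cell types in the Hoxa7 signal was not tested.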

How the data were processed

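The arrays were 4 one-colour Affymetrix arrays of 4T1 total RNA, 2 per group, with groups taken from the sample titles. The deposited values are linear intensities, 1 per probe set and array, for 45101 probe sets; per the submitters' processing notes GCOS, the Affymetrix operating software, was used, but no source used here gives its role, the summary method or any scaling. Intensities were quantile normalized and put on the log2(value + 16) scale. The 64 controls were dropped, and probe sets with a mean under the 40th percentile (log2 value 5.15) were left out. Each gene with 1 symbol in the platform annotation of 2016 was represented by its brightest probe set, giving 11956 genes. The test was limma's moderated one (version 3.58.1, R 4.3.3), two-sided, with a trended prior and 12.2 degrees of freedom, adjusted by Benjamini-Hochberg across all of these genes at 0.05, and the procedure was tested on simulated data. The 2 arrays per group limit the precision.

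The Hox genes and the gene lists were chosen with earlier results of these data known. Every Hox gene above the filter was named. Of each of 7 lists, genes past the threshold were named, or else the 2 with the smallest p and the brightest; Ezh2 and the remaining genes below the filter were named after their values were seen, as were the markers given with values. Alternatives were other scalings, pseudocounts of 1 and 64, other filters, other summaries of a gene's probe sets, other variance settings, each array left out in turn, and a block for the replicate number.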

Additional observations from a re-analysis of the deposited data

How the results depend on the processing

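The number of genes past the threshold, 9 as reported, was 25 with arrays centred on their medians, 3 with no scaling, 3 with no filter, 2 without the intensity trend, 18 with the replicate number as a block, and 6 to 16 when 1 array was left out, with 16 without positive replicate 1. Of the Hox genes 1, Hoxa7, passed with median centring and 0 in the other 17 alternatives; the cause was not tested. The lists of cofactors and regulators had 0 genes past the threshold in all 18 alternatives. The number of Hox genes above the filter, 8, was 33 with no filter and 4 at the 60th percentile, which change the filter itself. Their median log2 fold change, -0.11, was -0.24 with no scaling, -0.016 at the 60th percentile, where Hoxa7 was not included, and -0.092 to -0.00029 when 1 array was left out, where the filter was recomputed and 9 to 10 genes were above it; over the same 8 genes it was -0.17 to -0.068. The number of Hox genes lower in both positive arrays, 2, was 1 with no scaling and 1 at the 60th percentile, 7 with no filter, and 3 to 4 when 1 array was left out, where 3 arrays separate more easily than 4. Hoxa5 and Hoxa7 stayed below 0 and Hoxa2 above 0 in every alternative that kept them; Hoxa3, Hoxa4, Hoxa9, Hoxa10 and Hoxc6 changed sign in at least 1. The labels give same-numbered arrays a shared number and do not say whether they were paired. The deviations of these arrays from the group means correlated at 0.116 over all genes, and the block changed no Hox call.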
